A study of Mus musculus with 7 samples.

Results

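The genes described here are the interferon-stimulated genes of the mouse thymus, chosen by name: 40 symbols were looked up in a table of 16734 genes and 39 were found, the exception being Ifi27. The choice set no threshold on measured values, but it was made with earlier results of these data known. The shares of members called are therefore a description and not an independent test of the list. The genes were followed in thymus RNA from mice with a homozygous mutation of Ikaros, the zinc finger transcription factor encoded by Ikzf1. The groups were Ikaros ZnF4-/- (2 libraries, zinc finger 4), Ikaros ZnF1-/- (2 libraries, zinc finger 1) and wild type C57BL/6 (3 libraries, replicates 1, 2A and 2B), all from 4 week old mice. The labels give the mutation of the mutants and no further allele, and the mutation is not described as limited to 1 cell type. RNA came from cell suspensions put through a strainer, and polyadenylated RNA was sequenced. The labels do not say whether replicates were separate animals, so a p-value here measures the spread between these samples. They also do not say whether wild type 2A and 2B were separate preparations. If they were not, wild type has 2 samples, and values with 2A and 2B averaged stand beside the count of calls.

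Type I interferons bind the receptor IFNAR1/IFNAR2, which acts through the kinases JAK1 and TYK2 on STAT proteins, STAT2 among them. With IRF9 these form the complex ISGF3, which binds interferon-stimulated response elements (ISRE) in promoters and switches on genes for RNA sensors, 2'-5' oligoadenylate synthetases and other antiviral proteins. Thymic epithelium is known to make interferon in the absence of infection, and mature single-positive thymocytes are known to carry an interferon-induced program.

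Promoters are shown, to compare their response element letters, for 5 members that rose in ZnF4-/- thymus (Ifitm3, Ifih1 and Oas3, which hold the letters, and Oasl2 and Xaf1, which do not) and for 2 that were not called and hold them (Ifit1 and Isg15). Sequences are from RefSeq (build GRCm38.p6), 5′ to 3′ on the strand of the gene, from 250 bases before the start of transcription to 50 bases after it. Capitals mark the ISRE letters (GAAA, any 2 bases, GAAA) on either strand, and overlapping matches run together.
Ifitm3, chr7:141010695-141010994, minus strand: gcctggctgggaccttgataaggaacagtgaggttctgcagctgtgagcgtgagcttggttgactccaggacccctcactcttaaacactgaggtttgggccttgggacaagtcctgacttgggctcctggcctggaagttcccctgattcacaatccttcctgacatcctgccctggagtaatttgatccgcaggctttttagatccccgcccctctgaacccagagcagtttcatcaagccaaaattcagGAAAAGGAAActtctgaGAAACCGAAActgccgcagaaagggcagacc
Ifih1, chr2:62646206-62646505, minus strand: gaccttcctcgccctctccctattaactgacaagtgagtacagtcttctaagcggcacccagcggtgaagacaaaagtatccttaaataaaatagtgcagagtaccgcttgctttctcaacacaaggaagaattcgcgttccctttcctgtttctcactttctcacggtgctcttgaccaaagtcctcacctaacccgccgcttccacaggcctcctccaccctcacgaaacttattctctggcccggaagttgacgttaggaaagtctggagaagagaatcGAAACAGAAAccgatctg
Oas3, chr5:120777610-120777909, minus strand: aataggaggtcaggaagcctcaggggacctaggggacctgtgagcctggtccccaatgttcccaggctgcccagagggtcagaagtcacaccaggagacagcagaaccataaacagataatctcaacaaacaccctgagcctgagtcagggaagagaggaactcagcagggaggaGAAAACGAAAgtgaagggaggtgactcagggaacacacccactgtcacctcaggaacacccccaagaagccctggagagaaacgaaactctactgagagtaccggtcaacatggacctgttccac
Oasl2, chr5:114896684-114896983, plus strand: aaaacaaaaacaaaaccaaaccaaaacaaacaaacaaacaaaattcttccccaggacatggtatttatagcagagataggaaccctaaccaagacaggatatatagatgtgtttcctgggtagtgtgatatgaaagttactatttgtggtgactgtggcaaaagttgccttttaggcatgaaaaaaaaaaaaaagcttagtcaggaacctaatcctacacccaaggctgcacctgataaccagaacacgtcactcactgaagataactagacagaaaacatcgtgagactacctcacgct
Xaf1, chr11:72301379-72301678, plus strand: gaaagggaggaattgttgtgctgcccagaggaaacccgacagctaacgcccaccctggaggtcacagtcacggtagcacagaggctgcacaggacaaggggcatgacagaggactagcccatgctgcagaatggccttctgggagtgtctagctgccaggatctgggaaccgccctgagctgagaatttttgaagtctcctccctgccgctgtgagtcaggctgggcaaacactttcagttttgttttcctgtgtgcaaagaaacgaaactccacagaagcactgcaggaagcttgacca
Ifit1, chr19:34640639-34640938, plus strand: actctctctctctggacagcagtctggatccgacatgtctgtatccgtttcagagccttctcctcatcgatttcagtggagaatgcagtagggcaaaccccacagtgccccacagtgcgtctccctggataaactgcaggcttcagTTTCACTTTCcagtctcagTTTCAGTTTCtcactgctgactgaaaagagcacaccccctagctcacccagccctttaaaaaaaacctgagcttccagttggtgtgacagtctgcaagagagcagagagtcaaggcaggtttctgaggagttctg
Isg15, chr4:156200769-156201068, minus strand: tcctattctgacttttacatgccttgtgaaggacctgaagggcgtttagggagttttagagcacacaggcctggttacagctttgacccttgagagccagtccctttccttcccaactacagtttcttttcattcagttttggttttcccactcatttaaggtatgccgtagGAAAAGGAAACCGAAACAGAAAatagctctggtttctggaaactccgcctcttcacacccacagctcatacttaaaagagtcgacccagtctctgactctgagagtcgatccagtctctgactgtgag

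A promoter was at hand for 30 of the 40 members. The ISRE letters were in 12 of the 30 (40%), against 3.99% of 27025 genes with a promoter in the table. They were in 5 of 11 members called higher in ZnF4-/- with the replicate number as a block (45.5%) and in 6 of 17 tested members without that call (35.3%). The letters TGGGAA, the core that Ikaros is known to bind, were searched on either strand and found in 11 of 30 members (36.7%), against 28.3% of all genes. The ISRE letters with a shorter spacing (GAAA, any 1 base, GAAA) were searched on either strand after the printed windows had been seen. Such matches can overlap the ISRE letters. The letters with a spacing of 1 base were in 9 of 30 members (30%), Oas3 and Xaf1 included, against 3.7% of all genes. They were in 2 of 11 members called higher in ZnF4-/- with the block (18.2%). Of the tested members without that call, 6 of 17 held them (35.3%). A match is a description of letters, not evidence of binding.

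Of the 39 members, 36 had a mean of at least 1 RPKM (reads over exons, scaled to exon length and to the mapped reads of the library) over the 7 libraries and were tested, and Oas1a, Ifi44 and Mx2 fell below that filter. RPKM is scaled by gene length, so levels can be set beside each other. In wild type thymus the means ran from 0.21 RPKM (Ifi44) to 76.8 RPKM (Sp100). At least 10 RPKM was reached by 16 members, 19 lay between 1 and 10 RPKM and 4 lay under 1 RPKM. Sp100, a nuclear body protein, had 54.2 and 73.1 RPKM in ZnF4-/-, 70.3 and 81.2 RPKM in ZnF1-/-, and 70.7, 74.3 and 85.5 RPKM in wild type. It was the most abundant member in every library, its groups overlapped, and it was not called in any comparison.

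Replicate 1 of each group was read as 76 bp single-end reads on a GAIIx and the others as 50 bp reads on a HiSeq. Xist was at 90.6 to 109 RPKM in the replicates numbered 1 and at 0.01 to 0.03 RPKM in the others, so sequencing type and sex cannot be told apart and both go with the replicate number. The depth of the 76 bp libraries, recovered from the steps of low RPKM values, was 6310000 reads in ZnF4-/- replicate 1, 14320000 in ZnF1-/- replicate 1 and 20300000 in wild type replicate 1. That of the 50 bp libraries could not be resolved. The labelled tissue was checked by its markers: all 12 thymocyte markers stood at 1 RPKM or more in every library, with a summed level of 4394 to 6383 RPKM. Ikzf1 stood at 238 and 257 RPKM in ZnF4-/-, 183 and 194 RPKM in ZnF1-/-, and 142, 175 and 170 RPKM in wild type, so the transcript of the mutated gene was present in both mutants, and its summed level does not check which finger was altered. In RNA from such cell suspensions, fewer cells of a type and less RNA per cell cannot be told apart.

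In ZnF4-/- thymus 7 interferon-stimulated genes rose against wild type and none fell. The 7 were Oasl2, Ifitm3, Ifih1, Oas3, Xaf1, Parp14 and Usp18, with log2 fold changes of 0.88 to 1.66 (limma, Benjamini-Hochberg adjusted p of at most 0.05 over 10498 genes). They make up 19.4% of the 36 tested members, against 2.24% of all tested genes called higher, and 0.305% of all tested genes were called lower. At an unadjusted p under 0.05, 18 members were higher, against 7.01% of all tested genes, and 0 lower, against 3.11%. With the replicate number as a block, 16 members rose (44.4%, against 6.1% of all tested genes) and 0 fell (against 2.12%). The median log2 fold change of the members was 0.43, against -0.05 for all tested genes, and 32 of 36 were above 0, against 41% of all tested genes. Without the block, 0 members were called when ZnF4-/- replicate 1, ZnF4-/- replicate 2 or wild type 2B was left out, 2 without wild type 2A and 1 with 2A and 2B averaged. With the block, 9 to 22 were called whichever library was left out.

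**Figure D1:**
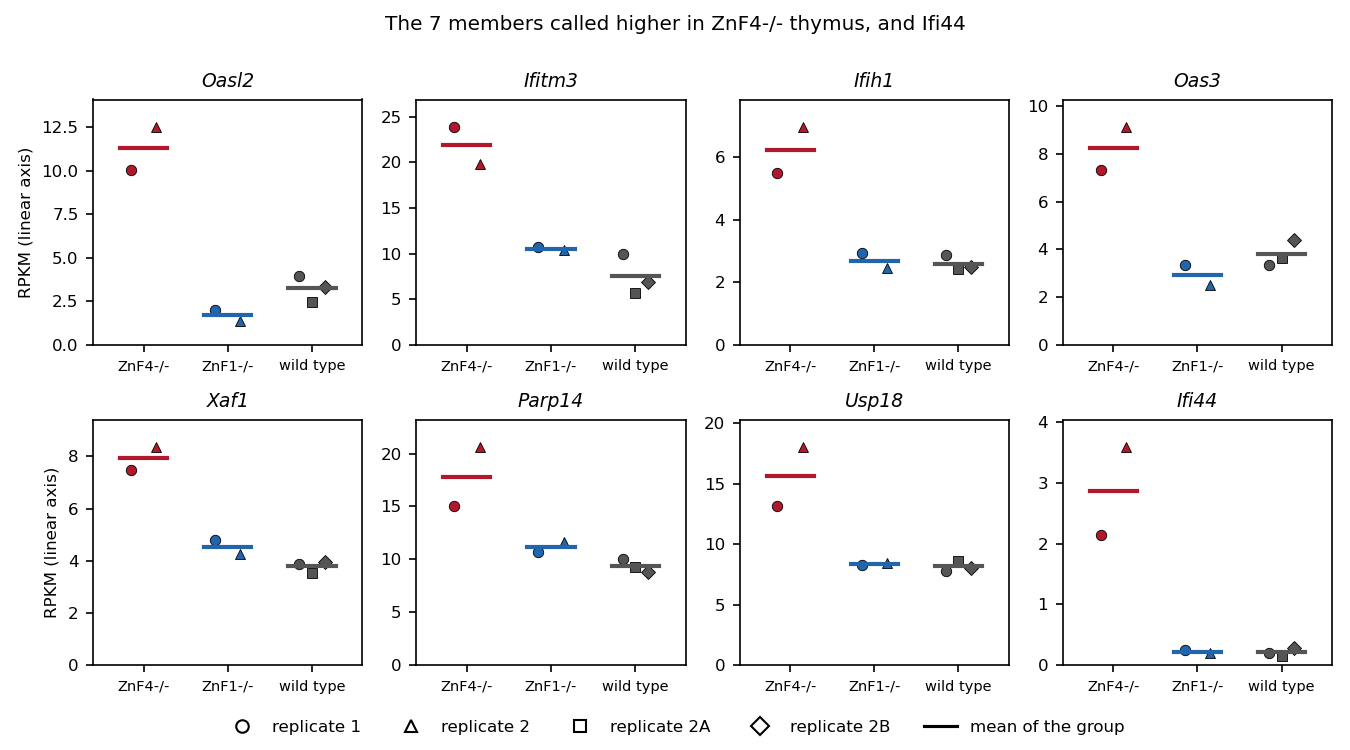
RPKM (linear axes from 0) of the 7 members called higher in ZnF4-/- thymus and of Ifi44, which lay below the filter; each point is a library, its shape the replicate number, and each bar the mean of a group. In each panel both ZnF4-/- libraries lie above every ZnF1-/- and wild type library.

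The 2'-5' oligoadenylate synthetase family, whose enzymes make the messenger that activates RNase L, included Oasl2 and Oas3 among the called genes, and Oasl2 had the largest log2 fold change of the 36 tested members. Oasl2, a synthetase-like protein on chromosome 5 (mm9 chr5:115346943-115362243, plus strand), had 10.03 and 12.53 RPKM in ZnF4-/-, 2.01 and 1.38 RPKM in ZnF1-/-, and 3.96, 2.47 and 3.32 RPKM in wild type. All ZnF4-/- libraries lay above all others, and both ZnF1-/- libraries lay below wild type. Its log2 fold change was 1.66 ± 0.23 (SE) in ZnF4-/- against wild type (adjusted p = 0.0116, limma). Oas3 (mm9 chr5:121203107-121227670, minus strand) had 7.32 and 9.14 RPKM in ZnF4-/-, 3.33 and 2.50 RPKM in ZnF1-/-, and 3.35, 3.62 and 4.41 RPKM in wild type. The ZnF4-/- libraries again stood apart, at 1.02 ± 0.19 on the log2 scale (adjusted p = 0.0405, limma).

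The other members of the family were not called without the block. Oas2 had 5.30 and 7.85 RPKM in ZnF4-/-, 4.40 and 2.55 RPKM in ZnF1-/-, and 3.58, 1.85 and 3.25 RPKM in wild type. The ZnF4-/- libraries were above all others, but the wild type values were spread and the log2 fold change of 1.08 ± 0.32 did not pass (adjusted p = 0.214, limma). Oasl1, which lies next to Oasl2, had 1.27 and 2.12 RPKM in ZnF4-/-, 2.42 and 1.76 RPKM in ZnF1-/-, and 2.56, 2.11 and 2.90 RPKM in wild type. Its groups overlapped, and its log2 fold change of -0.48 ± 0.24 did not pass (adjusted p = 0.626, limma). Oas1a, below the filter, had 1.19 and 0.68 RPKM in ZnF4-/-, 0.15 and 0.12 RPKM in ZnF1-/-, and 0.29, 0.15 and 0.34 RPKM in wild type. The ZnF4-/- values were the highest. With no filter its log2 fold change was 0.90 ± 0.18 (adjusted p = 0.0601 over 16734 genes, 0.0452 with the block, limma). Reads of Oas1a can be shared with the closely related Oas1g, so its level is uncertain.

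Among the sensors of foreign nucleic acid, Ifih1 rose and all 4 members were above 0. Ifih1 encodes MDA5, the sensor of long double-stranded RNA (mm9 chr2:62433850-62484312, minus strand). It had 5.49 and 6.97 RPKM in ZnF4-/-, 2.92 and 2.46 RPKM in ZnF1-/-, and 2.87, 2.41 and 2.47 RPKM in wild type. The ZnF4-/- libraries stood alone, and the log2 fold change was 1.12 ± 0.17 (adjusted p = 0.0179, limma). Dhx58 encodes LGP2, a regulator of the RIG-I-like sensors. It had 4.50 and 5.96 RPKM in ZnF4-/-, 3.88 and 3.37 RPKM in ZnF1-/-, and 2.66, 3.70 and 3.37 RPKM in wild type. The groups did not overlap between ZnF4-/- and wild type, and the call came only with the block (log2 fold change 0.61, adjusted p = 0.254, against 0.65 and 0.0442 with the block). Zbp1, a sensor of Z-form nucleic acid that can start necroptosis, had 29.1 and 36.4 RPKM in ZnF4-/-, 21.9 and 21.7 RPKM in ZnF1-/-, and 20.7, 25.3 and 25.1 RPKM in wild type. It too stood above the rest in both ZnF4-/- libraries, with a call only with the block (0.46, adjusted p = 0.362, against 0.49 and 0.0257). Ddx58, which encodes RIG-I, was not called (0.36 ± 0.15, adjusted p = 0.497), at 13.3 and 17.0 RPKM in ZnF4-/-, 13.5 and 12.3 RPKM in ZnF1-/-, and 11.5, 11.2 and 12.2 RPKM in wild type.

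Of the antiviral effectors, 14 were tested and Ifitm3 rose. Ifitm3, a membrane protein that blocks virus fusion in endosomes (mm9 chr7:148195485-148196669, minus strand), had 23.9 and 19.8 RPKM in ZnF4-/-, 10.7 and 10.4 RPKM in ZnF1-/-, and 9.91, 5.72 and 6.86 RPKM in wild type. The groups formed 3 steps without overlap, highest in ZnF4-/-. The log2 fold change in ZnF4-/- against wild type was 1.51 ± 0.23 (adjusted p = 0.0171, limma). Rtp4, a receptor transporter protein with antiviral activity, had 24.9 and 23.7 RPKM in ZnF4-/-, 13.4 and 8.16 RPKM in ZnF1-/-, and 12.1, 9.76 and 12.7 RPKM in wild type. Both ZnF4-/- libraries were far above the others, and the log2 fold change of 1.05 ± 0.23 was called only with the block (adjusted p = 0.0692, against 0.00905 with the block).

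A further 3 effectors were called only with the block. Eif2ak2, the kinase PKR that halts translation on double-stranded RNA, had 10.9 and 9.28 RPKM in ZnF4-/-, 7.83 and 5.52 RPKM in ZnF1-/-, and 7.27, 4.90 and 4.00 RPKM in wild type (0.88 on the log2 scale, adjusted p = 0.21, against 0.80 and 0.011 with the block). Isg20, an exonuclease, had 12.1 and 13.9 RPKM in ZnF4-/-, 6.41 and 8.98 RPKM in ZnF1-/-, and 6.85, 9.27 and 9.83 RPKM in wild type (0.57, adjusted p = 0.372, against 0.64 and 0.0104). In both genes ZnF4-/- did not overlap with wild type. Bst2, the tetherin that holds virions at the cell surface, had 27.4 and 47.0 RPKM in ZnF4-/-, 32.6 and 51.9 RPKM in ZnF1-/-, and 18.3, 35.9 and 35.1 RPKM in wild type (0.33, adjusted p = 0.96, against 0.46 and 0.0255). Its groups overlapped, since replicate 1 was the lowest library of each group, and the mutants were both above wild type within each number.

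The IFIT and Mx genes were not called. Ifit1, which binds foreign RNA caps, had 9.50 and 20.1 RPKM in ZnF4-/-, 7.47 and 6.21 RPKM in ZnF1-/-, and 9.77, 6.56 and 7.88 RPKM in wild type. ZnF4-/- replicate 2 was high and replicate 1 lay within wild type, and the log2 fold change of 0.76 ± 0.31 did not pass (adjusted p = 0.464, limma). Ifit2 had 10.2 and 8.78 RPKM in ZnF4-/-, 11.6 and 11.2 RPKM in ZnF1-/-, and 11.5, 7.86 and 7.73 RPKM in wild type, with overlapping groups in both mutants against wild type. Mx1, a GTPase that is inactive in most inbred mouse strains, had 1.91 and 1.75 RPKM in ZnF4-/-, 1.40 and 0.47 RPKM in ZnF1-/-, and 1.58, 0.57 and 0.73 RPKM in wild type. The ZnF4-/- values were the highest, with a log2 fold change of 0.74 ± 0.38 that did not pass (adjusted p = 0.662, limma). Mx2, below the filter, had 1.09 and 1.64 RPKM in ZnF4-/-, 0.53 and 0.44 RPKM in ZnF1-/-, and 1.10, 0.64 and 0.71 RPKM in wild type, with overlap between ZnF4-/- and wild type.

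Rsad2, Cmpk2 and Ifit3 differed in direction between the replicate numbers. Rsad2 encodes viperin, an enzyme that makes a chain-terminating nucleotide, and Cmpk2 is the nucleotide kinase encoded beside it. Rsad2 had 2.72 and 3.65 RPKM in ZnF4-/-, 3.56 and 1.52 RPKM in ZnF1-/-, and 6.79, 1.69 and 1.65 RPKM in wild type. Cmpk2 had 2.65 and 3.63 RPKM in ZnF4-/-, 2.39 and 1.84 RPKM in ZnF1-/-, and 3.99, 1.83 and 1.91 RPKM in wild type. In both genes wild type replicate 1 was the highest of the 7 libraries and wild type 2A and 2B were among the 3 lowest. Ifit3, whose reads can be shared with the near-identical Ifit3b, had 0.78 and 1.61 RPKM in ZnF4-/-, 1.11 and 0.60 RPKM in ZnF1-/-, and 1.61, 1.11 and 0.86 RPKM in wild type. Within number 1 the ZnF4-/- library was below wild type and within number 2 above it, by -0.72 and 0.51 on the log2 scale.

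**Figure D2:**
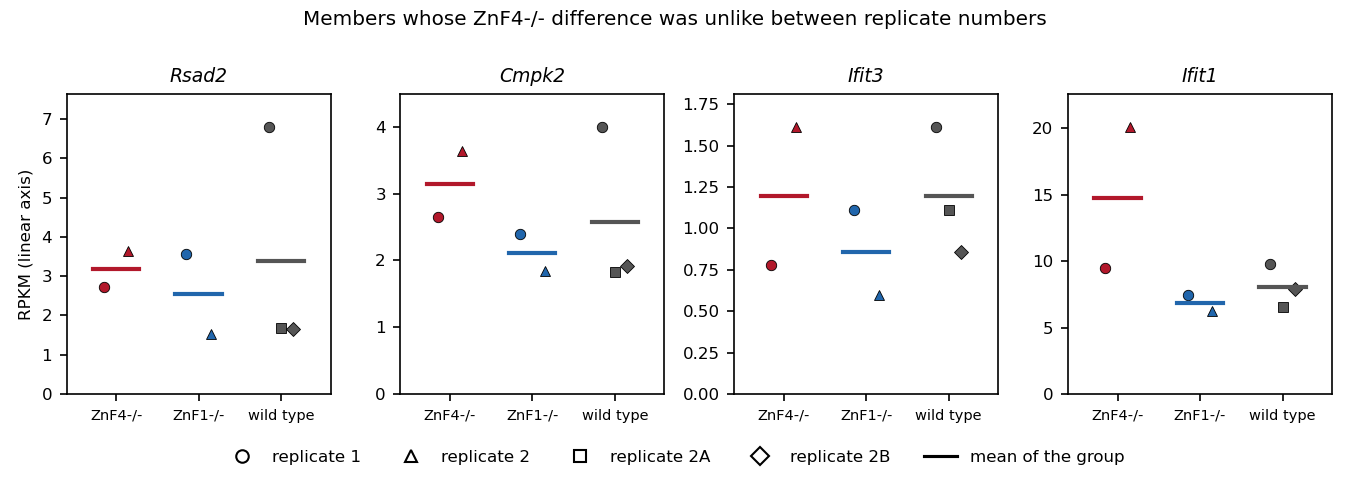
RPKM (linear axes from 0) of Rsad2, Cmpk2, Ifit3 and Ifit1 in each library; point shapes give the replicate number and bars the mean of a group. Wild type replicate 1 lies above ZnF4-/- replicate 1, while ZnF4-/- replicate 2 lies above wild type 2A and 2B.

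Ifi44, an interferon-induced protein of the cytoplasm (mm9 chr3:151393886-151412911, minus strand), lay just under the filter with a mean of 0.97 RPKM. It had 2.14 and 3.59 RPKM in ZnF4-/-, 0.24 and 0.20 RPKM in ZnF1-/-, and 0.20, 0.15 and 0.28 RPKM in wild type. ZnF4-/- stood alone, while the values of ZnF1-/- and wild type overlapped. In a fit with no filter its log2 fold change was 2.21 ± 0.20 (adjusted p = 0.00503 over 16734 genes, limma), and 0.5 RPKM is added before the log, which shrinks the fold of so low a gene. The 76 bp libraries gave it an estimated 39 reads in ZnF4-/-, 10 in ZnF1-/- and 12 in wild type.

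Enzymes of the ISG15, ubiquitin and ADP-ribose group were all above 0 in ZnF4-/- (7 of 7), and 2 rose. Usp18, which removes ISG15 from proteins and restrains the interferon receptor (mm9 chr6:121195924-121220934, plus strand), had 13.2 and 18.0 RPKM in ZnF4-/-, 8.29 and 8.45 RPKM in ZnF1-/-, and 7.79, 8.64 and 8.06 RPKM in wild type. Its log2 fold change was 0.88 ± 0.16 (adjusted p = 0.0408, limma). Parp14, an ADP-ribosyltransferase (mm9 chr16:35832960-35871630, minus strand), had 15.02 and 20.62 RPKM in ZnF4-/-, 10.7 and 11.7 RPKM in ZnF1-/-, and 9.98, 9.22 and 8.80 RPKM in wild type. Its log2 fold change was 0.88 ± 0.17 (adjusted p = 0.0452, limma). Both ZnF4-/- libraries of each gene were above all 5 others. Dtx3l, a ubiquitin ligase that pairs with PARP9, had 32.0 and 34.5 RPKM in ZnF4-/-, 31.0 and 27.2 RPKM in ZnF1-/-, and 25.1, 23.9 and 24.4 RPKM in wild type. Both mutants lay above wild type, and ZnF4-/- was called only with the block (0.43, adjusted p = 0.264, against 0.43 and 0.0348). Dtx3l shares 458 exon bases with Parp9, which lies head to head with it, and the strand of the reads is not given in the sources used here, so reads in that stretch cannot be assigned.

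The ubiquitin-like protein Isg15 itself had 6.02 and 10.6 RPKM in ZnF4-/-, 8.28 and 5.93 RPKM in ZnF1-/-, and 6.27, 6.11 and 6.01 RPKM in wild type. ZnF4-/- replicate 2 was high, replicate 1 lay within wild type, and the log2 fold change of 0.36 ± 0.24 did not pass (adjusted p = 0.835, limma). Herc6, the mouse ligase that attaches ISG15, had 6.95 and 8.76 RPKM in ZnF4-/-, 7.49 and 5.61 RPKM in ZnF1-/-, and 6.19, 5.38 and 5.55 RPKM in wild type (0.42 ± 0.18, adjusted p = 0.483). Xaf1, a promoter of apoptosis that counters XIAP (mm9 chr11:72115131-72127235, plus strand), had 7.49 and 8.36 RPKM in ZnF4-/-, 4.80 and 4.24 RPKM in ZnF1-/-, and 3.89, 3.54 and 3.96 RPKM in wild type. The 3 groups did not overlap, and ZnF4-/- rose by 0.97 ± 0.14 on the log2 scale (adjusted p = 0.0151, limma). Pml, which builds the nuclear bodies that hold Sp100, was at 22.9 and 25.3 RPKM in ZnF4-/-, 21.8 and 22.6 RPKM in ZnF1-/-, and 16.1, 20.7 and 20.9 RPKM in wild type and was not called (0.32 ± 0.16, adjusted p = 0.641).

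The transcription factors of the pathway were not called without the block. Irf9, the DNA-binding part of ISGF3, had 19.6 and 28.5 RPKM in ZnF4-/-, 14.6 and 14.7 RPKM in ZnF1-/-, and 14.8, 15.4 and 17.0 RPKM in wild type. Its ZnF4-/- libraries stood above the rest (0.57, adjusted p = 0.268, against 0.61 and 0.0261 with the block). Irf7, which amplifies interferon production, had 15.2 and 19.9 RPKM in ZnF4-/-, 15.5 and 14.6 RPKM in ZnF1-/-, and 10.6, 13.4 and 13.6 RPKM in wild type, both mutants above wild type (ZnF4-/- 0.46, adjusted p = 0.415, against 0.50 and 0.0449 with the block). Irf1, a factor best known from the response to interferon gamma, had 25.9 and 37.9 RPKM in ZnF4-/-, 18.5 and 28.4 RPKM in ZnF1-/-, and 20.0, 30.9 and 27.1 RPKM in wild type, with overlapping groups. Stat2 had 13.9 and 17.5 RPKM in ZnF4-/-, 14.1 and 17.8 RPKM in ZnF1-/-, and 14.9, 18.2 and 18.5 RPKM in wild type, and its groups overlapped (ZnF4-/- -0.13 ± 0.18, adjusted p = 0.972). The remaining members, Ifi35, Adar, Parp9, Trim25 and Samd9l, had log2 fold changes of 0.04 to 0.29 in ZnF4-/- against wild type and were not called in any comparison.

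The comparison within replicate numbers gave the same side for most members. Against wild type of its own number, ZnF4-/- was higher in both numbers for 26 of 36 tested members, against 25.1% of all tested genes. It was lower in both for 3 (Sp100, Stat2 and Oasl1), against 29.2% of all tested genes. The median difference of the members was 0.35 in number 1 and 0.59 in number 2. Every ZnF4-/- library lay above every wild type library for 21 members (58.3%), against 12.5% of all tested genes, and the reverse held for 0, against 10.6%.

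**Figure D3:**
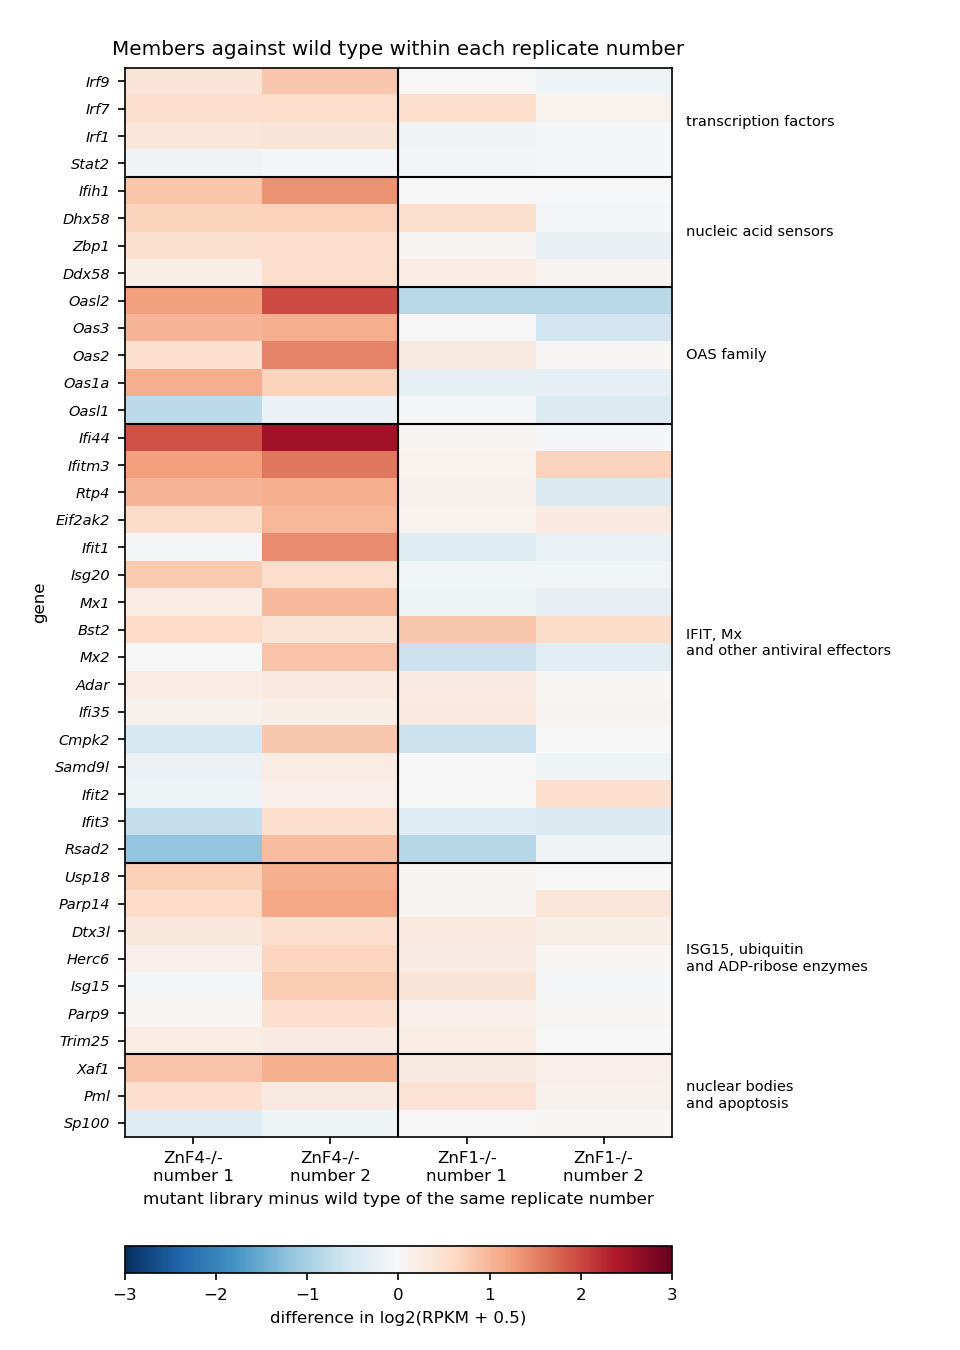
Difference in log2(RPKM + 0.5) between a mutant library and wild type of the same replicate number (2A and 2B averaged for number 2), for the 39 members in the table grouped by role; red is higher in the mutant. The ZnF4-/- columns are red for most members and the ZnF1-/- columns mixed, with Oasl2 blue and Bst2 red in both numbers and Rsad2, Cmpk2 and Mx2 blue in number 1.

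In ZnF1-/- thymus no member was called against wild type, where 0.0762% of all tested genes were called higher and 0.00953% lower. At an unadjusted p under 0.05, 0 members were higher, against 2.12% of all tested genes, and 1 lower, against 1.72%. With the block these were 5 higher, against 4.96%, and 1 lower, against 3.77%. The lower member was Oasl2 (log2 fold change -0.77 ± 0.23, adjusted p = 0.759, limma, 0.158 with the block). The median over the members was 0.05, against -0.02 for all tested genes. With the block 1 member rose, against 0.572% of all tested genes, and 0 fell, against 0.305%: Bst2, at 0.66 on the log2 scale with the block (adjusted p = 0.0265) and 0.52 ± 0.38 without it (adjusted p = 1.00). Ifitm3 had a log2 fold change of 0.50 ± 0.23 in ZnF1-/- and did not pass. Every ZnF1-/- library was above every wild type library for 9 members, against 6.85% of all tested genes, and below for 3 (Oasl2, Oas3 and Irf9), against 6.99%.

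**Figure D4:**
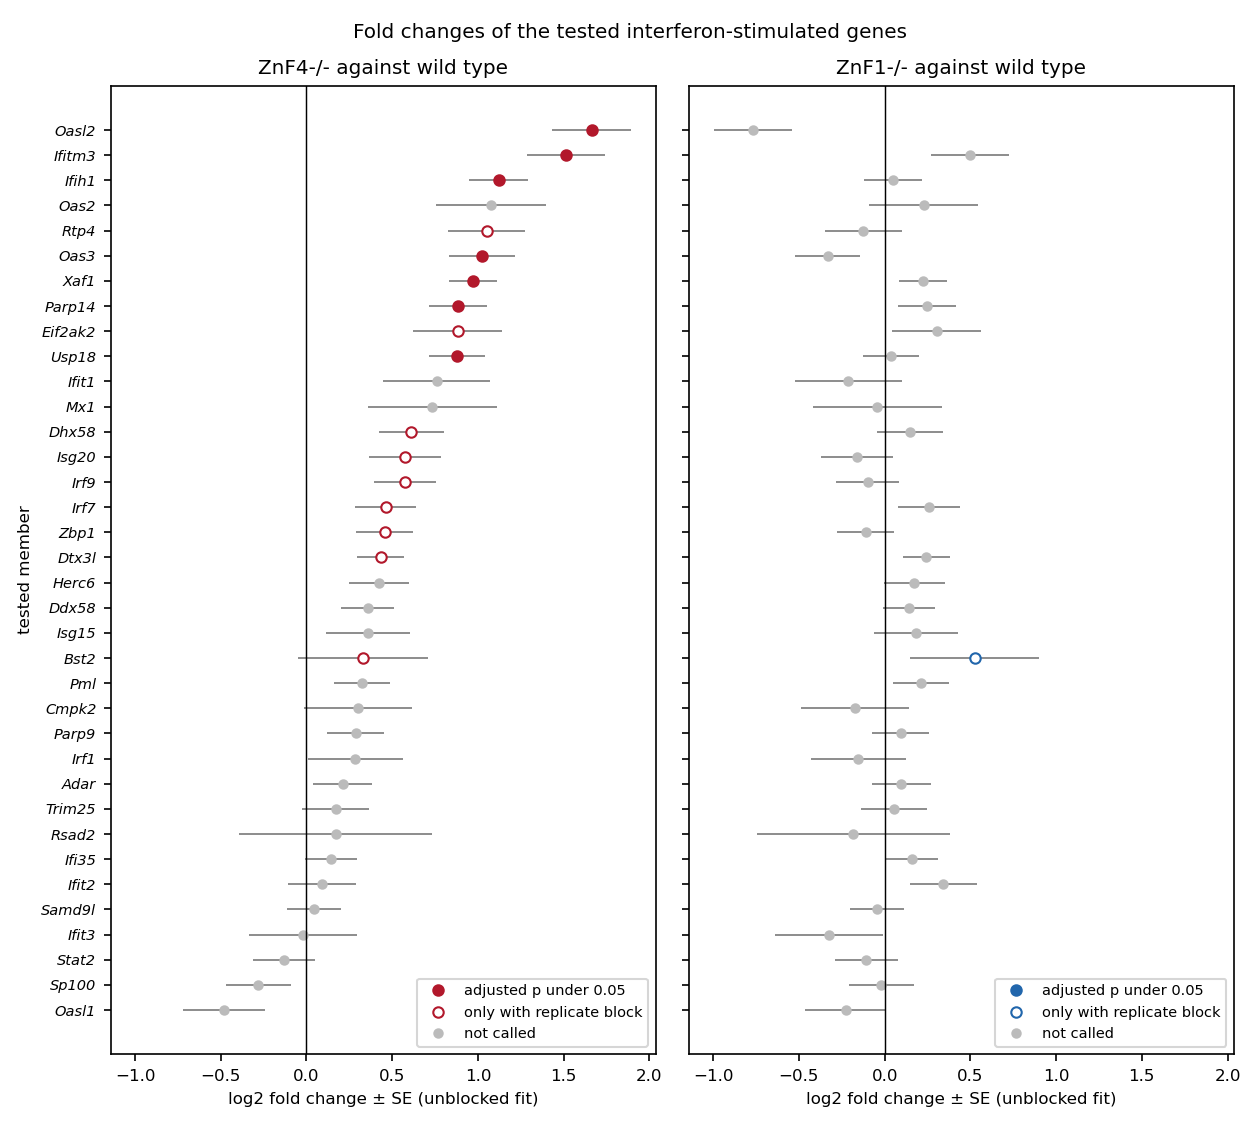
Log2 fold change ± SE from the fit without the block for the 36 tested members, ZnF4-/- against wild type on the left and ZnF1-/- against wild type on the right; filled coloured points were called, open ones only with the replicate block, grey ones not. In the left panel 32 points lie above 0 and 7 are filled; in the right panel none is filled.

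Both mutants were compared with the same wild type libraries, so the direct comparison of the mutants was tested as well. ZnF4-/- was higher than ZnF1-/- for 3 members (8.33%), against 2.02% of all tested genes, and lower for 0, against 0.324%. Oasl2 differed by 2.43 ± 0.25 on the log2 scale (adjusted p = 0.00336, limma), Oas3 by 1.36 ± 0.21 (adjusted p = 0.0189, limma) and Ifih1 by 1.07 ± 0.19 (adjusted p = 0.0309, limma). With the block 12 members were higher (33.3%, against 5.19% of all tested genes) and 0 lower (against 2.1%). The further 9 were Rtp4, Ifitm3, Usp18, Xaf1, Isg20, Irf9, Parp14, Zbp1 and Irf1, with log2 fold changes of 0.44 to 1.18. With no filter, Ifi44 was higher by 2.19 ± 0.22 (adjusted p = 0.00727) and Oas1a by 1.15 ± 0.20 (adjusted p = 0.0384). Without the block, 1 member was called when ZnF4-/- replicate 1, ZnF4-/- replicate 2 or ZnF1-/- replicate 2 was left out, and with it 3 to 18 whichever library was left out. The median over the members was 0.40, against -0.03 for all tested genes, at 0.095 within number 1 and 0.72 within number 2. Within both numbers ZnF4-/- was the higher for 20 members, against 26.6% of all tested genes, and the lower for 4 (Sp100, Bst2, Stat2 and Ifit2), against 37.3%.

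The receptor and its kinases were not called in either mutant against wild type. Ifnar1 had 15.97 and 18.09 RPKM in ZnF4-/-, 16.8 and 17.6 RPKM in ZnF1-/-, and 15.6, 16.8 and 15.7 RPKM in wild type, and Ifnar2 lay between 15.3 and 18.5 RPKM in all libraries. Jak1 had 68.6 and 107 RPKM in ZnF4-/-, 73.1 and 92.3 RPKM in ZnF1-/-, and 73.1, 91.0 and 87.1 RPKM in wild type. Tyk2 lay between 7.06 and 10.6 RPKM in all libraries.

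In ZnF4-/- against wild type, 22 tested receptors, kinases, STATs, IRFs and SOCS proteins had a median log2 fold change of 0.07, against -0.05 for all tested genes. Of these, 1 rose without the block, against 2.24% of all tested genes. That gene was Irf4, known for its role in activated lymphocytes, with 9.87 and 13.2 RPKM in ZnF4-/-, 1.99 and 2.87 RPKM in ZnF1-/-, and 2.47, 2.76 and 2.76 RPKM in wild type. The ZnF4-/- libraries were far above the others, at 1.92 ± 0.20 on the log2 scale (adjusted p = 0.00416, limma). With the block 3 of the 22 rose, Irf4 and Socs3 among them, against 6.1% of all tested genes. Ifngr1, a chain of the interferon gamma receptor, fell, against 2.12% of all tested genes. Ifngr1 had 85.9 and 111 RPKM in ZnF4-/-, 174 and 231 RPKM in ZnF1-/-, and 114, 171 and 168 RPKM in wild type. Its log2 fold change was -0.53 with the block (adjusted p = 0.0149). Irf8 was not called in ZnF4-/-, at 4.62 and 4.78 RPKM in ZnF4-/-, 5.64 and 5.54 RPKM in ZnF1-/-, and 3.50, 4.83 and 4.09 RPKM in wild type.

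Of 17 tested genes that sense nucleic acid upstream of interferon, 0 were called in ZnF4-/- against wild type without the block (limma). With it 1 rose, the kinase Ikbke (adjusted p = 0.0438, limma), against 6.1% of all tested genes. At an unadjusted p under 0.05, 1 was higher, against 7.01% of all tested genes, and 0 lower, against 3.11%. With the block these were 3 higher, against 11.5%, and 0 lower, against 8.97%. Of the interferon genes, 3 were in the table (Ifng, Ifnk and Ifnb1), and the others of the list were not analysed here. Ifng stood at 0.26 and 0.14 RPKM in ZnF4-/-, 0 and 0.02 RPKM in ZnF1-/-, and 0.04, 0.05 and 0.08 RPKM in wild type. Ifnk stood at 0 and 0.08 RPKM in ZnF4-/-, 0.48 and 0.03 RPKM in ZnF1-/-, and 0.05, 0.04 and 0.02 RPKM in wild type. Ifnb1 was listed at 0 in every library but ZnF1-/- replicate 1 (0.18 RPKM), so the levels of these 3 were under 0.5 RPKM throughout. Among 26 tested interferon-stimulated genes outside the 40, the median log2 fold change was 0.50, against -0.05 for all tested genes. Without the block 1 rose, against 2.24% of all tested genes, and 1 fell, against 0.305%. Nlrc5, the transactivator of class I MHC genes, had 11.7 and 14.7 RPKM in ZnF4-/-, 6.36 and 6.09 RPKM in ZnF1-/-, and 6.38, 6.32 and 7.24 RPKM in wild type (0.93 ± 0.15, adjusted p = 0.0245, limma). Epsti1 went the other way, with 11.5 and 15.9 RPKM in ZnF4-/-, 24.3 and 28.1 RPKM in ZnF1-/-, and 26.9, 42.5 and 33.1 RPKM in wild type (-1.28 ± 0.23, adjusted p = 0.0368, limma). With the block 7 of the 26 rose (Nlrc5, Shisa5, Lgals3bp, Oas1b, Mov10, Parp12 and Tor3a), against 6.1% of all tested genes. Epsti1 fell, against 2.12% of all tested genes.

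Markers of other cell types also differed between the groups, and their part in the results above was not tested. The 13 macrophage and dendritic cell markers, none of them at 0, summed to 104 and 137 RPKM in ZnF4-/-, 50.9 and 76.7 RPKM in ZnF1-/-, and 79.9, 85.8 and 61.4 RPKM in wild type. Lyz2 was the largest term, at 56.8 and 73.9 RPKM in ZnF4-/-, 20.5 and 39.5 RPKM in ZnF1-/-, and 39.9, 39.2 and 26.5 RPKM in wild type. ZnF4-/- overlapped with wild type in Csf1r, Emr1, C1qa, C1qb, C1qc, Cd68, Xcr1, Clec9a and Fcgr1. Cd68 was at 8.62 and 7.10 RPKM in ZnF4-/- and 10.01, 7.09 and 6.98 RPKM in wild type. Both ZnF4-/- libraries lay above wild type in Lyz2, Mertk, Itgam and Itgax. The same held for 12.5% of all tested genes, a share that does not cover Mertk and Itgax, which lay below the filter. Without the block 0 of the 8 tested were called. With it 2 rose (C1qa and C1qc), against 6.1% of all tested genes. The 10 mature single-positive thymocyte markers summed to 343 and 451 RPKM in ZnF4-/-, 285 and 347 RPKM in ZnF1-/-, and 296, 362 and 366 RPKM in wild type, with overlap between ZnF4-/- and wild type. Of the 10, 1 rose in ZnF4-/- without the block (S1pr1), against 2.24% of all tested genes, and 4 with it, against 6.1%. The 9 thymic epithelium markers summed to 35.9 and 38.8 RPKM in ZnF4-/-, 9.54 and 15.6 RPKM in ZnF1-/-, and 12.05, 18.36 and 14.04 RPKM in wild type, and Cldn4 alone made up 29.3 and 34.2 RPKM of the ZnF4-/- sums. Foxn1, which defines thymic epithelium, was at 0.06 RPKM or less in every library. The 8 plasmacytoid dendritic cell markers summed to 191 and 233 RPKM in ZnF4-/-, 280 and 290 RPKM in ZnF1-/-, and 345, 307 and 352 RPKM in wild type. That sum is mostly Ccr9, which thymocytes also express, at 172 and 208 RPKM in ZnF4-/-, 261 and 269 RPKM in ZnF1-/-, and 328, 287 and 333 RPKM in wild type. Ccr9 fell and Tcf4 rose in ZnF4-/- with the block (adjusted p = 0.011 and 0.029), and neither was called without it. The defining marker Siglech was at 0.16 and 0.06 RPKM in ZnF4-/-, 1.32 and 0.75 RPKM in ZnF1-/-, and 0.53, 0.96 and 0.53 RPKM in wild type, and Klk1 was at 0 in ZnF4-/- replicate 1. The 6 B cell markers summed to 14.8 and 19.3 RPKM in ZnF4-/-, 27.0 and 36.4 RPKM in ZnF1-/-, and 19.6, 24.5 and 22.7 RPKM in wild type. The 8 fibroblast and endothelium markers summed to 38.0 and 42.8 RPKM in ZnF4-/-, 35.2 and 39.6 RPKM in ZnF1-/-, and 29.8, 42.1 and 37.5 RPKM in wild type, and Pecam1 made up nearly all of each sum. The other 7 were under 1 RPKM and below the filter, with Pdgfra at 0 in every library. Of these Col1a1, Col1a2, Col3a1 and Cdh5 were higher in both ZnF4-/- libraries than in every wild type library. They lay below the filter, so the share over all tested genes does not apply to them. Their levels were low and were not tested, with Col1a2 at 0.09 and 0.18 RPKM in ZnF4-/- and 0.02, 0.05 and 0.03 RPKM in wild type.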

How the data were processed

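Per the labels, RNA was sequenced as single-end reads, and per the submitters' processing notes TopHat, bedtools and build mm9 were used; versions are not given in the sources used here. Per the series design text, the authors deposited RPKM per RefSeq gene from exonic reads counted in SeqMonk, with duplicate transcripts removed. To the deposited RPKM a pseudocount of 0.5 was added before taking log2. Genes averaging 1 RPKM or more were tested with limma 3.58.1 (lmFit, eBayes with trend; R 4.3.3), all 3 groups in 1 fit, two-sided, with Benjamini-Hochberg adjustment over 10498 genes and a threshold of 0.05. The test was checked on simulated data.

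Replicate number was no term in that fit. Per the labels number 1 marks the 76 bp run. Deviations of the 8 same-number pairs correlated across genes at 0.489 to 0.737. The mutant pairs of number 1 and number 2 gave the same value (0.658), so the 8 are not separate checks. The correlations show an effect shared within a number and cannot show that samples were prepared as pairs. A fit with the number as a block is given where it changes a call or moves a count by over 1.5 times. Alternatives were the pseudocount, the filter, the scaling, averaged wild type 2A and 2B, and leaving out each library; combinations with the block were added after the data were seen.

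Members and gene lists were chosen with earlier results of these data known. Every member was accounted for: values in each library were given for members called in any fit, the 5 highest, and the 5 largest uncalled changes; Ifi44, Oas1a, Mx2, Ddx58, Pml, Isg15, Ifit2, Ifit3, Rsad2, Cmpk2 and Stat2 were added after their values were seen. Of the other lists, called genes were named with values for a few. Gene coordinates are from GENCODE vM1 on NCBIM37 (mm9). The 50 bp libraries have no known depth. 1 gene of the pathway lists is not reported here.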

Additional observations from a re-analysis of the deposited data

Results flagged for a closer look

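In 3 members the difference between ZnF4-/- and wild type had opposite signs in the replicate numbers, with at least 0.5 on the log2 scale in each. The difference itself was not tested, since each number holds 1 ZnF4-/- library. For Rsad2 ZnF4-/- minus wild type was -1.18 in number 1 and 0.94 in number 2, which is 2.11 apart. For Cmpk2 it was -0.51 and 0.80, which is 1.31 apart. For Ifit3 it was -0.72 and 0.51, which is 1.23 apart. Estimated reads in the 76 bp libraries were 65 in ZnF4-/-, 193 in ZnF1-/- and 523 in wild type for Rsad2, and 10, 32 and 65 in the same groups for Ifit3. Number goes with read length, instrument and sex, and their part was not tested.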

How the results depend on the processing

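Without the block, 7 members were called higher in ZnF4-/- against wild type. The count was 4 with a filter of 3 RPKM and 1 with wild type 2A and 2B averaged. It was 16 with the replicate block, 17 with block and median scaling, 16 with block and quantile scaling and 15 with block and no filter. Leaving out 1 library gave 0 to 6 calls without the block, with 0 without ZnF4-/- replicate 1, ZnF4-/- replicate 2 or wild type replicate 2B and 2 without wild type 2A, and 9 to 22 with it; called lower were 0 to 1 with the block. The 7 were called in all 12 settings with the block, and of the 9 called with the block alone 2 were (Isg20 and Rtp4). These settings include the block with wild type 2A and 2B averaged. In ZnF1-/- against wild type 1 member was called higher with the block, also with median (1) or quantile scaling (1), and leaving out 1 library with the block gave 0 to 1 in each direction. In ZnF4-/- against ZnF1-/- the 3 calls became 5 with no filter, 12 with the block, 13 with block and median scaling, 13 with block and quantile scaling, 9 with block and averaged wild type and 11 with block and no filter; leaving out 1 library gave 1 to 4 without the block and 3 to 18 with it (10 without wild type 2A, 8 without wild type 2B). Of those 3 calls 2 held in all 12 settings with the block, and of the 9 made with the block alone 0 did. The median log2 fold change of the members, leaving out 1 library, ran from 0.26 to 0.63 in ZnF4-/- against wild type (0.33 to 0.63 with the block), from 0.04 to 0.16 in ZnF1-/- (-0.04 to 0.18 with the block) and from 0.17 to 0.60 between the mutants (0.12 to 0.63 with the block). Bst2 in ZnF4-/- against wild type ran from -0.0546 without ZnF4-/- replicate 2, a changed sign, to 0.713 without ZnF4-/- replicate 1. The causes were not tested. Mutants have 2 libraries each, so every call rests on a spread shared over the groups, and low members such as Oas1a and Ifit3 rest on few reads.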

Other observations

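Several members lie beside each other in the genome, and neighbours did not always have alike values. Oasl2 and Oasl1 lie next to each other on chromosome 5, and in ZnF4-/- against wild type the log2 fold change was 1.66 for Oasl2, which rose, and -0.48 for Oasl1, which did not pass. Oas2, Oas3 and Oas1a form a second cluster on chromosome 5, with log2 fold changes of 1.08, 1.02 and 0.90, the last of these with no filter, and of the 3 only Oas3 was called in the fit without the block. On chromosome 16 Parp14 (0.88, called) lies beside Dtx3l (0.43, called with the block) and Parp9 (0.29, not called). On chromosome 19 Ifit1, Ifit2 and Ifit3 had log2 fold changes of 0.76, 0.09 and -0.02, none of them called. These groupings were chosen after the values were seen and were not tested.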
